A study of Mus musculus with 11 samples.

Results

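The interaction of Csf1r and Csf2 copy loss asks, gene by gene, whether microglia that lack a copy of both genes differ from wild type by the sum of what each loss does alone. It was measured over all 11 libraries of the series, each a bulk RNA library of Tmem119+ microglia sorted from the cerebrum of an aged C57BL/6 mouse. The 4 groups were Dhet (Csf1r+/-; Csf2+/-, 2 libraries from ages of 21 and 24 months), Csf1r_het (Csf1r+/-, 3 libraries at 20, 24 and 21 months), Csf2het (Csf2+/-, 3 libraries at 21 months) and WT (wild type, 3 libraries at 21 months). Csf1r_het and Csf2het are called the single heterozygotes. No label ties the lost copies to a cell type, so other cells of the brain and blood may carry them too. Of the 14739 genes in the table, 13223 had a mean of at least 10 normalized counts and were tested, and 1516 lay below that level.

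Csf1r is the receptor through which CSF-1 and IL-34 keep microglia alive, and Csf2 encodes GM-CSF, a cytokine that acts on myeloid cells through receptor chains encoded by Csf2ra and Csf2rb. Loss of a CSF1R copy underlies CSF1R-related leukoencephalopathy in humans, and the Csf1r+/- mouse is a model of it. A gene is additive when the change in the mutant of both genes equals, on a log scale, the sum of the changes in the mutants of each.

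The interaction was (Dhet minus Csf2het) minus (Csf1r_het minus WT) on log2(normalized count + 1), with 0 for an additive gene, fitted with limma. A gene was called at a limma adjusted p under 0.05 over all 13223 genes. Below, an interaction is a difference on this log2 scale, and called higher or lower means a called positive or negative interaction. The parts of the contrast share libraries and are given side by side. No label names separate cultures or litters, so p-values measure the spread between these libraries.

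The libraries differed in ways that the groups do not explain. Between 21037819 and 53081638 reads were assigned to genes, and haemoglobin genes took 16.1% to 58.8% of them, the highest share in Csf1r_het replicate 2. In WT replicate 2 cytosolic ribosomal protein genes summed to 2571490 normalized counts, where the other 10 libraries had at most 850654. Interferon response genes summed to 664255 there, against 149593 and 81724 in WT replicates 1 and 3. Dhet replicate 2 was unlike the rest in sex-linked genes, with a male pattern where the other 10 libraries had a female one. The labels give no sex, and within Dhet a difference of sex cannot be told apart from one of age. The Ddx3y level of Dhet replicate 2 was 717 normalized counts and its Xist level 4.02, where the other 10 libraries had at most 16.3 of Ddx3y and no less than 3011 of Xist. It is also the 24-month library of its group, so values without it are given beside several results. Tmem119, the marker of the sort, held 30741 and 23328 normalized counts in Dhet, 15711 to 16736 in Csf1r_het, 18805 to 31939 in Csf2het and 5432 to 19084 in WT.

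In all, 244 genes were called, or 1.85% of those tested. The interaction was positive in 159 (1.20%) and negative in 85 (0.643%), and 2385 genes had an unadjusted p under 0.05. Of all tested genes 54.2% had a positive interaction. All 159 genes called higher lay below WT in both single heterozygotes, and all 85 called lower lay above WT in both. In Dhet the level lay between WT and the nearer single heterozygote in 119 of the 159 and 68 of the 85, and beyond WT in 23 and 17, against 23.3% and 22.1% of all genes tested. These shares come from the values that made the calls and describe them only. Across the 159 the median difference to WT was -0.72 in Dhet, -1.62 in Csf1r_het and -2.06 in Csf2het, where the sum of the single changes had a median of -3.78. Across the 85 it was 0.36 in Dhet, 1.64 in Csf1r_het and 1.52 in Csf2het, with a median sum of 3.20. A positive call at a negative sum, or a negative call at a positive sum, by construction leaves Dhet short of the sum. The contrast on the linear scale had the same sign in all 244 genes, as it did in 90.4% of all genes tested.

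**Figure D1:**
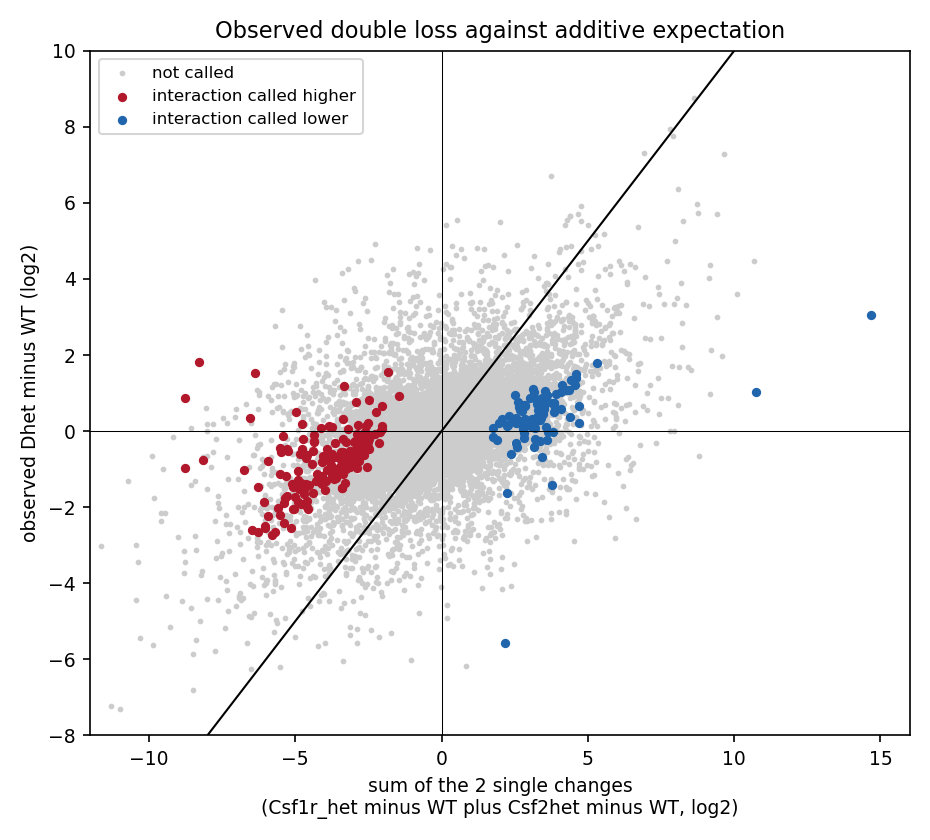
Each point is 1 gene; the x axis is the sum of the Csf1r_het and Csf2het differences to WT and the y axis the observed difference of Dhet to WT, both in log2, with the line where they are equal. The 159 genes called higher (red) lie above the line at negative sums and the 85 called lower (blue) lie below it at positive sums.

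The departure was placed in the group whose mean lay farthest, in standard errors, from the mean of the other 3. It was WT in 147 of the 244 called genes (60.2%, against 34.2% of all genes tested) and Csf2het in 53 (21.7%, against 18.1%). It was Csf1r_het in 32 (13.1%, against 25.3%) and Dhet in 12 (4.92%, against 22.4%). Dhet has 2 libraries and so a larger standard error, which makes this rule place fewer genes there at an equal distance. In a second description, a difference to WT of at least 1 counted as a move. Both single heterozygotes moved the same way and Dhet did not in 146 called genes (59.8%, against 8.08% of all tested). All 3 groups moved the same way in 72 (29.5%, against 9.21%). No called gene moved in Dhet alone, a pattern that 1161 of all tested genes had (8.78%). These shares too rest on the values that made the calls.

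Among direct comparisons, limma called 70 genes in Dhet against WT, 4 higher (0.0303%) and 66 lower (0.499%), 0.529% of those tested in all. It called 174 in Csf1r_het against WT (1.32%), 57 higher (0.431%) and 117 lower (0.885%), and 482 in Csf2het against WT (3.65%), 107 higher (0.809%) and 375 lower (2.84%). In Dhet against Csf2het it called 3, all higher (0.0227%), and in Dhet against Csf1r_het it called 1, also higher (0.00756%). The number called for the interaction depended on single libraries. It was 47 without Dhet replicate 1, 61 without WT replicate 1, and 103 and 72 without Csf1r_het replicates 1 and 3. It was 71, 95 and 86 without Csf2het replicates 1, 2 and 3, and 896 without WT replicate 2. Without Dhet replicate 2 it was 245, but with 77 higher and 168 lower. Of the 244 calls, 33 (26 higher and 7 lower) held in each of the 11 fits with 1 library left out. With library medians centred the split was 119 higher and 122 lower, and with TMM factors 121 and 111. The excess of positive calls is therefore relative to a median interaction of 0.15 over all genes, which centring put at -0.09.

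Markers of blood monocytes moved with the genes called higher. Their summed level was 82378 and 77904 normalized counts in Dhet, 60573 to 75175 in Csf1r_het, 19334 to 28205 in Csf2het and 112205 to 274756 in WT. In this sum the Csf2het libraries lay below all others and the WT libraries above all others, with Dhet just above Csf1r_het. The sum gives weight to abundant genes such as Chil3, with means of 32744 in Dhet and 11531 in Csf1r_het. Over the 14 markers the median log2 difference of Dhet to Csf1r_het was -0.32. All 14 markers had a positive interaction and 7 were called higher, against 54.2% and 1.20% of all genes, with a median of 2.88 (2.69 without Dhet replicate 2). Ly6c2, a surface protein of classical monocytes, held 19300.5 and 11839 normalized counts in Dhet, 14663, 11769 and 21324 in Csf1r_het, 2149, 3985 and 3023 in Csf2het and 23042, 36798 and 12958 in WT. All 10 B cell markers had a positive interaction too (median 1.88), with 0 called by limma and 4 at an unadjusted p under 0.05. Their median was 0.83 without the 24-month libraries and 0.05 with the 21-month libraries only. In bulk RNA, fewer cells of a type and less RNA per cell cannot be told apart. The mean of the 14 monocyte markers, 7 of them called, follows the groups closely. As a covariate it takes up the interaction of these markers by construction. With it limma called 0 genes for the interaction (1057 at an unadjusted p under 0.05). No part of monocytes can be read from that fit, nor from the values given with this covariate below.

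The inhibitory and paired receptors of myeloid cells held 5 genes called higher of 20, against 1.20% of all genes, and 19 of 20 had a positive interaction, against 54.2%. Their median interaction was 1.77, from medians of -0.70 in Dhet, -1.13 in Csf1r_het and -1.85 in Csf2het. Pirb (ENSMUSG00000058818.13, chromosome 7, 3711409 to 3720391, mm10), which carries inhibitory motifs that recruit the phosphatase SHP-1, held 1446 and 2176 normalized counts in Dhet. It held 1530, 766 and 998 in Csf1r_het, 510.1, 651 and 631 in Csf2het and 8367, 5874 and 5605 in WT. The 3 WT libraries lay far above all 8 others, and Dhet overlapped Csf1r_het. Its interaction was 4.20 (SE 0.49, limma adjusted p = 0.00362), it was 3.91 without Dhet replicate 2, and the call held without any 1 library. Pira2 (ENSMUSG00000089942.9, chromosome 7, 3836812 to 3845051), an activating relative that is not in the list of 20 and is named for its size, held 605 and 689 normalized counts in Dhet. It held 275, 526 and 237 in Csf1r_het, 72.0, 18.2 and 81.8 in Csf2het and 1548, 1189.9 and 1201 in WT. Its departure lay in Csf2het, which was below all other libraries, and its interaction was 5.73 (SE 0.86, limma adjusted p = 0.00874).

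The promoters of Pirb and Pira2 are shown because an inhibitory and an activating receptor were called together and are close copies there. The capitals mark GAGGAAGT, a core that PU.1, the master regulator of the myeloid lineage, can bind. The windows run from 250 bases before to 50 after the start in the RefSeq annotation of GRCm38.p6 and read 5′ to 3′ on the gene's strand, at chr7:3720333-3720632 for Pirb and chr7:3845002-3845301 for Pira2, both on the reverse strand.
Pirb: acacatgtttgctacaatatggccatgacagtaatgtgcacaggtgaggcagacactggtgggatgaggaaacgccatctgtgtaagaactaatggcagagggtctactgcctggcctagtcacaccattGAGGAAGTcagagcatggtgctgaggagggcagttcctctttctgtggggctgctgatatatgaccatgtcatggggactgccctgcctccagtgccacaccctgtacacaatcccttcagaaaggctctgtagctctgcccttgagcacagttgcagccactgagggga
Pira2: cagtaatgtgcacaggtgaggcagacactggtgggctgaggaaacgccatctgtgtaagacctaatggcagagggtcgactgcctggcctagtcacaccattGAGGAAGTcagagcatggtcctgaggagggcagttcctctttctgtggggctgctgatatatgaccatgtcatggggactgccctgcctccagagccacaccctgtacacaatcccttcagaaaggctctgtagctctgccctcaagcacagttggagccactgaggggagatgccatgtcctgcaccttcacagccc
Aligned with gaps allowed, 264 of 300 bases (88.0%) were identical. Reads from such copies can be split between them by the counting, so the division of the levels between Pirb and Pira2 is uncertain. Of the 13223 genes tested, 9433 had a promoter in the table. Among the 128 called higher of these, 10 held GAGGAAGT on either strand (7.81%), against 0 of 63 called lower and 3.65% of all 9433.

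Besides Pirb, the called members of the list were Cd300lb, Clec12a, Ptpn6 and Lilrb4a. Cd300lb, an activating receptor, held 677 and 2059.5 normalized counts in Dhet, 503, 330.4 and 429.6 in Csf1r_het, 491, 333 and 271 in Csf2het and 2534, 1212 and 2290.4 in WT (interaction 3.94, SE 0.69). Of the Dhet libraries, replicate 2 lay among the WT values and replicate 1 between WT and the single heterozygotes. Clec12a, an inhibitory lectin, departed in Csf2het, with 2511 and 4509 normalized counts in Dhet, 3122, 1906 and 2589 in Csf1r_het, 618, 1116 and 877 in Csf2het and 4351, 3978 and 3847 in WT (interaction 2.70, SE 0.49). Ptpn6, the phosphatase SHP-1 itself, held 5088 and 6619.6 normalized counts in Dhet, 3386 to 4455 in Csf1r_het, 3442 to 3865 in Csf2het and 9402 to 14813 in WT (interaction 2.29, SE 0.41, limma adjusted p = 0.0175). Lilrb4a (ENSMUSG00000062593.17), an inhibitory receptor, had 2.33 (SE 0.54), with an uncertain split of reads between near copies. For Ptpn6, Dhet lay between WT and the single heterozygotes without overlap. Cd300lb lost its call without WT replicate 1, and Clec12a and Ptpn6 kept theirs in 7 and 5 of the 11 fits.

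Pygl and Nfe2 were among the 3 genes for which Dhet was called against Csf2het, so that loss of a Csf1r copy went with a higher level where a Csf2 copy was missing. Pygl (ENSMUSG00000021069.17, chromosome 12, 70190811 to 70231488), the liver-type glycogen phosphorylase that releases glucose from glycogen, held 2760.3 and 2262 normalized counts in Dhet. It held 784, 867 and 1051 in Csf1r_het, 449, 279 and 188 in Csf2het and 3080.5, 3362 and 3867 in WT. No group overlapped the next, in the order WT, Dhet, Csf1r_het and Csf2het. Its interaction was 5.05 (SE 0.51, limma adjusted p = 0.00136), and Dhet exceeded Csf2het by 3.12 (SE 0.38, limma adjusted p = 0.0114). Nfe2, a transcription factor subunit of the megakaryocytic and erythroid lineages, held 2594 and 2363 normalized counts in Dhet, 946, 923 and 963 in Csf1r_het, 577, 549 and 307 in Csf2het and 3293, 2381 and 3369 in WT, with an interaction of 4.08 (SE 0.47, limma adjusted p = 0.00362). For Nfe2 the Dhet libraries overlapped WT and lay above all single heterozygotes. The calls of both genes held without any 1 library. Nfe2 was singled out after its values were seen.

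**Figure D2:**
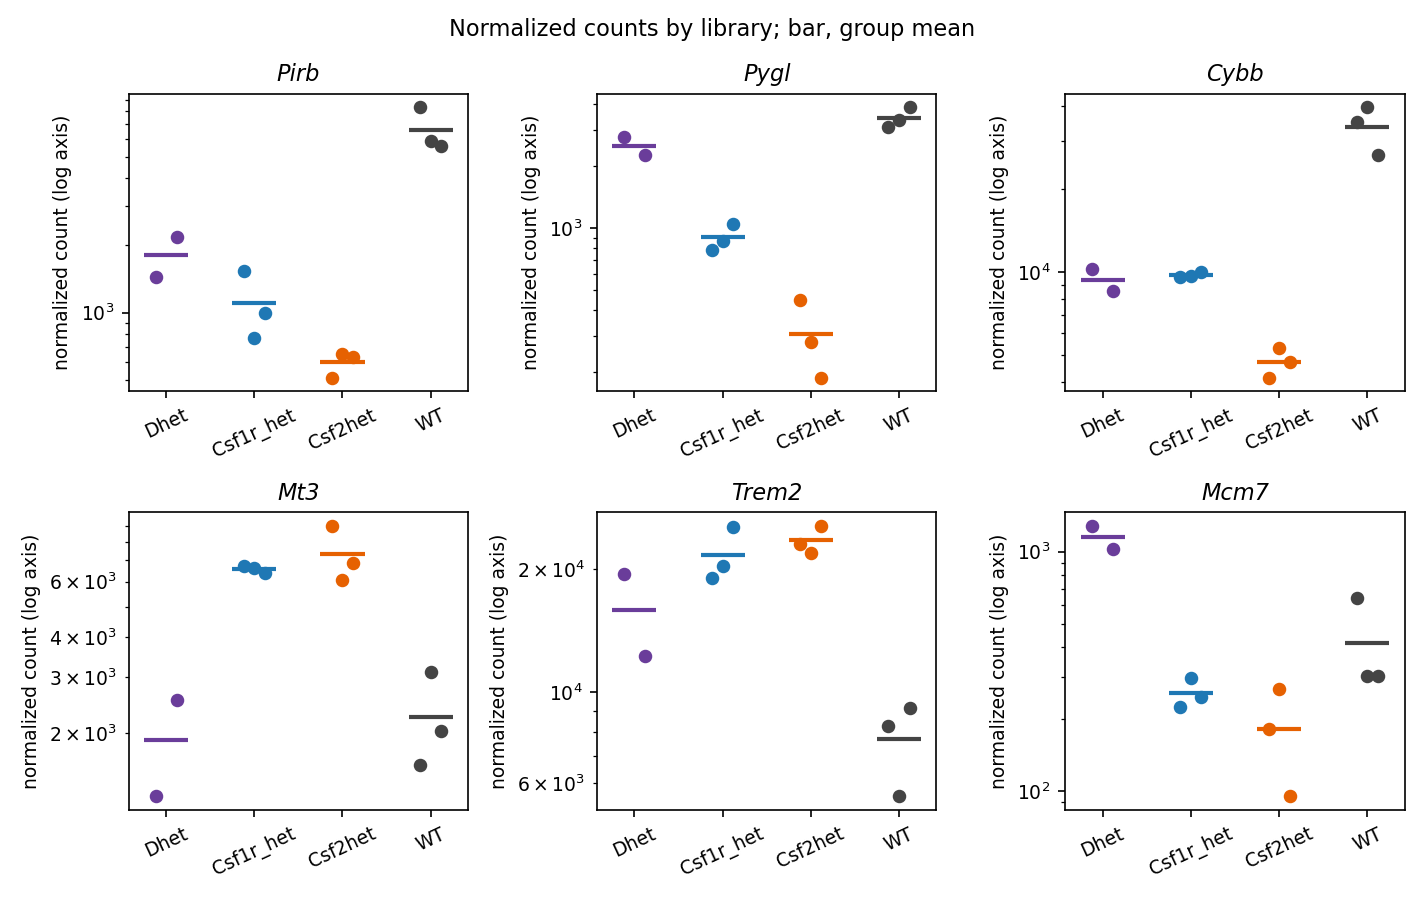
Normalized counts of 6 genes in each library (log axis, points) with the group mean (bar), for Dhet, Csf1r_het, Csf2het and WT. Pirb and Cybb are highest in WT, Pygl is high in Dhet and WT, Mt3 is high in the single heterozygotes, Trem2 is low in WT and Mcm7 is high in Dhet.

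Genes of the phagocyte NADPH oxidase, the complex that makes superoxide, had a positive interaction in 8 of 9, against 54.2% of all genes, and 3 were called higher, against 1.20%. Cybb (ENSMUSG00000015340.10, chromosome X, 9435252 to 9487771), its catalytic subunit gp91phox, held 10235 and 8518 normalized counts in Dhet. It held 9615, 9720.1 and 9996 in Csf1r_het, 4136, 5317 and 4712 in Csf2het and 34969, 39791 and 26533 in WT. Dhet overlapped Csf1r_het, Csf2het lay below both, and WT stood above all 8 heterozygous libraries. The interaction was 2.76 (SE 0.41, limma adjusted p = 0.00874) and 2.89 without Dhet replicate 2. Without Dhet replicate 1 the call was lost (2.63, limma adjusted p = 0.0509). Rac2, the small GTPase of the complex, held 12662 and 13182 normalized counts in Dhet, 7776 to 9034 in Csf1r_het, 4309.6 to 5969.7 in Csf2het and 10800.4 to 19644 in WT (interaction 2.27, SE 0.45), so that its Dhet libraries lay inside the WT range. Rac2 kept the call in 3 of the 11 fits. Cyba, the partner subunit p22phox, had an interaction of 0.01 (SE 0.76). The median of the 9 genes was 1.64 and kept its sign in all 27 alternatives.

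The promoter of Cybb is shown because interferon-responsive elements are a known feature of this gene. The capitals mark matches to a core of the interferon-stimulated response element, GAAA with any 2 bases before another GAAA, on either strand in the RefSeq window of GRCm38.p6 at chrX:9469275-9469574, reverse strand. This window belongs to a transcript whose start lies 18447 bases from the start of the gene as deposited.
Cybb: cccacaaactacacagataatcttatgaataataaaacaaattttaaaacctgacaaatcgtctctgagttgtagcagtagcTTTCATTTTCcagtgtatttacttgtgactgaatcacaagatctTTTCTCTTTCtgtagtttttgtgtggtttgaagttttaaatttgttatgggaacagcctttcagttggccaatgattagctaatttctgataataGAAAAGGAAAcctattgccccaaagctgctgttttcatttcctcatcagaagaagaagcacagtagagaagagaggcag
A match lay in 6 of 128 promoters of genes called higher (4.69%), in 0 of 63 of genes called lower and in 3.35% of all.

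Of 15 listed integrins 3 were called higher, and Itgb8, an integrin chain outside the list, was called lower (-3.85). Of 27 actin and migration genes 4 were called higher. Both counts stand against 1.20% of all genes, and most members of both lists did not pass. Their median interactions were 1.13 and 1.58, and that of the integrins was 1.73 without Dhet replicate 2 and 1.85 without the 24-month libraries. Itgal, the alpha chain of LFA-1, held 2129.6 and 1263 normalized counts in Dhet, 1872, 3054 and 1919 in Csf1r_het, 1129.7, 833 and 967 in Csf2het and 15712, 13417 and 6233 in WT (interaction 3.06, SE 0.56). Its partner chain Itgb2 had an interaction of 2.50 (SE 0.46), and Itgb7, which pairs with alpha 4, had 3.69 (SE 0.71). For Itgal and Itgb7 all 8 heterozygous libraries lay below the 3 WT libraries. Lcp1, the actin-bundling L-plastin, held 9717 and 10229 normalized counts in Dhet, 4966, 6780.4 and 6911 in Csf1r_het, 5677, 5683 and 5148 in Csf2het and 19594, 18872 and 19354 in WT (interaction 2.51, SE 0.39, limma adjusted p = 0.00885). Here Dhet stood between the single heterozygotes and WT with no overlap, and the call held without any 1 library. The myosin Myo1g (3.05, SE 0.56) was called as well, in 5 of the 11 fits, and Itgal, Itgb2 and Itgb7 kept their calls in 4 each.

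Complement and pathogen sensing genes were called in part. Of 18 complement genes 3 were called, all higher, against 1.20% of all genes, with Itgb2 counted here too. C3, the central component, held 1384 and 621 normalized counts in Dhet, 824, 560.1 and 1015 in Csf1r_het, 297, 417 and 222 in Csf2het and 3448, 4261 and 1858 in WT (interaction 3.57, SE 0.65, limma adjusted p = 0.0193). Dhet replicate 1 lay above and replicate 2 inside the Csf1r_het range, with WT above all and Csf2het below all. C3 kept its call in 7 of the 11 fits and lost it without WT replicate 1, Csf2het replicates 1 and 3, and Dhet replicate 1. Without Dhet replicate 1 its interaction was 2.99. Cfp, properdin, held 1327 and 1696 normalized counts in Dhet, 1196, 216 and 829 in Csf1r_het, 211, 302 and 95.4 in Csf2het and 2531, 1111 and 1809.6 in WT, so that Dhet lay in the WT range (interaction 4.55, SE 0.91). Of 18 Toll-like receptor genes and adaptors, the adaptor Myd88 (2.67, SE 0.59) and the kinase Irak4 (2.80, SE 0.57) were called higher, 11.1% against 1.20% of all genes. Irak4 held 656 and 539.9 normalized counts in Dhet, 264 to 405 in Csf1r_het, 229 to 410.1 in Csf2het and 1017 to 1457 in WT, again with Dhet between WT and the single heterozygotes. The TNF receptor Tnfrsf1b (2.44, SE 0.51) was the 1 called of 18 genes of IL-1, the inflammasome and TNF (5.56%, against 1.85% of all genes in either direction). Cfp, Irak4, Tnfrsf1b and Myd88 kept their calls in 5, 5, 4 and 2 of the 11 fits.

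Interferon genes split by direction. Of 28 tested, Irf9 and Slfn2 were called higher and Ifi27 lower, with a median interaction of 0.80 (-0.61 with the monocyte covariate). Called genes of either direction made up 1.85% of all genes. Without 1 library the median ran from 0.39 (without Dhet replicate 1) to 1.27 (without WT replicate 3), and it was 0.42, 0.48, 0.51 and 0.51 without WT replicate 2, Csf2het replicate 2, WT replicate 1 and Csf1r_het replicate 3. It was 1.22 without the 24-month libraries. Irf9, the DNA-binding part of the ISGF3 complex, held 1995 and 1536 normalized counts in Dhet, 1012, 1187 and 779 in Csf1r_het, 1057, 986 and 858 in Csf2het and 2508, 2227 and 2236 in WT (interaction 2.11, SE 0.42). Ifi27, an interferon-induced protein, ran the other way, with 3659.9 and 5163 normalized counts in Dhet, 14873, 12998 and 13233 in Csf1r_het, 9609.9, 6764 and 8044 in Csf2het and 3363, 2657 and 4316 in WT (interaction -2.91, SE 0.43, limma adjusted p = 0.00874). For Ifi27 the single heterozygotes were above all Dhet and WT libraries, with the departure in Csf1r_het. Slfn2, a Schlafen protein of leukocyte quiescence, had 2.81 (SE 0.64). Stat3, a transducer of cytokine receptors, held 2059 and 1445 normalized counts in Dhet, 806 to 1224 in Csf1r_het, 1108 to 1353 in Csf2het and 2949 to 5214 in WT (interaction 2.48, SE 0.48), and the repressor Nfil3 had 3.51 (SE 0.68). Irf9, Stat3 and Nfil3 kept their calls in 4, 5 and 4 of the 11 fits, Slfn2 in 2 and Ifi27 in 10.

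Immediate early genes, which tissue dissociation can induce, had a positive interaction in 22 of 23, against 54.2% of all genes. Their median was 1.59 (1.19 without Dhet replicate 1 and 2.40 without Dhet replicate 2). Called were the factor Klf2 (2.97, SE 0.60), the phosphatase Dusp1 (3.53, SE 0.76) and Ier2 (2.56, SE 0.53), 3 of 23 against 1.20% of all genes called higher. Each of them kept its call in 3 of the 11 fits. Dusp1 held 2844 and 777 normalized counts in Dhet, 841, 425 and 472 in Csf1r_het, 627, 1033 and 394 in Csf2het and 3705, 2072 and 2664 in WT. Dhet replicate 1 lay in the WT range and replicate 2 among the single heterozygotes, and the list's sum shows the same split. The summed level of the list was 57885 and 22469 normalized counts in Dhet, 22786 to 23124 in Csf1r_het, 18137 to 31978 in Csf2het and 42964 to 74234 in WT. Its part in the other results was not tested.

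In metabolism, Plin2, which coats lipid droplets, was the 1 called gene of 27 lipid genes (3.70%, against 1.85% of all genes). It held 908 and 1346 normalized counts in Dhet, 1027, 1052 and 919 in Csf1r_het, 899, 974 and 751 in Csf2het and 4347, 3799.7 and 5722 in WT (interaction 2.54, SE 0.43, limma adjusted p = 0.0148). The 8 heterozygous libraries overlapped and lay below WT, and the call held without any 1 library. The lactate exporter Slc16a3 was the 1 called gene of 20 in glycolysis and lactate export (3.46, SE 0.78). It, the choline carrier Slc44a2 (3.28, SE 0.54), the glucose transporter Slc2a6 (3.71, SE 0.79) and Slc22a15 were the 4 called of 192 solute carriers (2.08%, against 1.85% of all genes). Gsr, which regenerates glutathione with NADPH, held 3013 and 6843 normalized counts in Dhet, 3090.3, 2602 and 1982 in Csf1r_het, 1840, 1844 and 1206 in Csf2het and 14683, 7857 and 11629.7 in WT (interaction 3.64, SE 0.55, limma adjusted p = 0.00874). Dhet replicate 2 approached the lowest WT library while Dhet replicate 1 lay inside the Csf1r_het range. Tgfbi, a matrix protein induced by TGF-beta, had 3.54 (SE 0.64), the splicing factor Hnrnpm 2.28 (SE 0.41), the autophagy lipid scramblase Atg9a 3.21 (SE 0.72) and the orphan receptor Gpr141 3.25 (SE 0.66). Gsr kept its call in all 11 fits, Slc44a2 lost it without Dhet replicate 1, and Tgfbi and Hnrnpm kept theirs in 7 and 6. Slc2a6 and Gpr141 kept it in 3 each, Slc16a3 in 2, and Atg9a and Slc22a15 in 1 each.

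Among called genes averaging 50 or more normalized counts, the 12 largest positive interactions ran from 4.80 to 7.89. Csf2het was the group of departure in all 12. Tarm1, an activating receptor of myeloid cells, held 114 and 168 normalized counts in Dhet, 89.8, 16.3 and 47.4 in Csf1r_het, 2.09, 3.83 and 5.45 in Csf2het and 159, 216 and 367 in WT (interaction 7.39, SE 1.33). Glipr2, a Golgi-associated protein, held 1609.9 and 2010.1 normalized counts in Dhet, 428, 206 and 295 in Csf1r_het, 238, 413 and 50.4 in Csf2het and 1065, 1077 and 1797 in WT (interaction 5.49, SE 0.95). For Glipr2 Dhet reached the WT range while the single heterozygotes overlapped each other. Map4k1, a kinase of blood cells (4.80, SE 0.84), the sphingosine-1-phosphate receptor S1pr4 (5.15) and F13a1, a coagulation factor chain made by monocytes and macrophages (4.93, SE 0.87), were lowest in Csf2het too. Pxylp1, Slco3a1 (6.88), Slc22a15 (5.29), Ccdc125 (4.96) and Ndrg1 (4.80) complete the set with Pira2 and Pygl. Of the 12, Pira2 and Pygl held in all 11 fits and Glipr2 in 10, Tarm1 and Map4k1 in 8 and F13a1 in 7. The other 6 held in 1 to 5.

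Genes called lower lay above WT with either single loss and mostly near WT in Dhet. Mt3 (ENSMUSG00000031760.9, chromosome 8, 94152607 to 94154146), a metallothionein best known from neurons and astrocytes, held 1264 and 2539.6 normalized counts in Dhet. It held 6698, 6609 and 6391 in Csf1r_het, 9016, 6056 and 6883 in Csf2het and 1583, 3108 and 2029 in WT. The 6 single-heterozygote libraries lay above the 5 others with no overlap. Its interaction was -3.62 (SE 0.50, limma adjusted p = 0.00851), and it was -4.12 without Dhet replicate 2. Such separation held for 78 of the 85 genes called lower, against 1.77% of all genes, and the mirror image for 92 of the 159 called higher, against 2.22%. Both shares come from the values that made the calls and describe them only. The detoxifying transferase Gsta4 held 541 and 1402 normalized counts in Dhet, 3758, 2934 and 3992 in Csf1r_het, 2841, 2907 and 2194 in Csf2het and 798, 354 and 1055 in WT (interaction -3.99, SE 0.65). Bex2, of the brain-expressed X-linked family (-3.81, SE 0.61), and the histone gene Hist1h2bc (-3.01, SE 0.43, limma adjusted p = 0.00851) had that separation too. Gpx4, which reduces lipid peroxides, had -2.22 (SE 0.49), and Map1lc3a, an LC3 of autophagosomes, -2.57 (SE 0.59). Mt3 and Hist1h2bc kept their calls without any 1 library, Gsta4 and Bex2 lost theirs without Dhet replicate 1, and Gpx4 and Map1lc3a kept theirs in 3 and 2 of the 11 fits.

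Of the homeostatic and disease-associated microglial genes, Trem2 and Cd63 were called, both lower. Trem2 (ENSMUSG00000023992.14, chromosome 17, 48346401 to 48354147), the lipid-sensing receptor of the disease-associated state, held 19450 and 12258 normalized counts in Dhet. It held 19029, 20381 and 25286 in Csf1r_het, 23063, 21832 and 25514 in Csf2het and 8299, 5582 and 9161 in WT. WT lay below all 8 heterozygous libraries. The sum of the single changes (3.15) exceeded the 1.04 seen in Dhet, for an interaction of -2.11 (SE 0.48, limma adjusted p = 0.0427). That call held in 2 of the 11 fits, and without Dhet replicate 2 it was lost (-1.78, limma adjusted p = 0.129). Cd63, a lysosomal membrane protein, had -2.16 (SE 0.49), called in 3 of the 11. They were the 2 called of 23 disease-associated genes (8.70%, median -0.73), and Trem2 the 1 called of 21 homeostatic genes (4.76%, median -0.65), against 1.85% of all genes. The disease-associated median was -0.19 without Dhet replicate 2 and -0.33 without the 24-month libraries. The homeostatic median was -1.01 without Dhet replicate 1, -0.37 without Dhet replicate 2 and -0.27 without WT replicate 2. Both medians turned positive with the monocyte covariate, at 0.14 and 1.17. The purinergic receptor P2ry12 had an interaction of -1.07 (SE 0.58) and the lectin Siglech -1.64 (SE 0.52), and neither passed.

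Energy metabolism had a negative median with few calls. Of 80 nuclear genes of oxidative phosphorylation 72 had a negative interaction, with a median of -1.42 from medians of -0.43 in Dhet, 0.54 in Csf1r_het and 0.42 in Csf2het. Only Cox8b, a muscle-type subunit of cytochrome oxidase, was called (1.25%, no more than the 1.85% of all genes). Cox8b held 1165 and 2192 normalized counts in Dhet, 5495 to 6358 in Csf1r_het, 6123 to 9255 in Csf2het and 916 to 4854 in WT (interaction -3.60, SE 0.73). All 13 mitochondrially encoded genes had a negative interaction (median -1.62), with 0 called by limma and 1 at an unadjusted p under 0.05. Mrps6, of the mitochondrial ribosome, held 1395 and 1801 normalized counts in Dhet, 4043, 3072 and 3630.2 in Csf1r_het, 3270, 3467 and 3069.8 in Csf2het and 806, 468 and 1116 in WT (interaction -3.29, SE 0.49). It was the 1 called of 78, 1.28% and so also no more than in all genes. Cox8b kept its call in 5 of the 11 fits, and Mrps6 lost its call without Dhet replicate 1. The median of the mitochondrially encoded genes was -0.81 without Dhet replicate 2 and -0.37 without the 24-month libraries, and that of the nuclear list -2.18 without WT replicate 2. The median of the nuclear list was -0.69 after adjustment for transcript length and GC content, and that of the mitochondrially encoded genes turned to 1.04 with the monocyte covariate. For 87 cytosolic ribosomal proteins, with a median of -0.41, with 0 called by limma and 0 at an unadjusted p under 0.05, the sign turned with the length and GC adjustment, with edgeR, with DESeq2 and without WT replicate 3. Without 1 library their median ran from -1.36 to 0.17, the ends without WT replicates 2 and 3.

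**Figure D3:**
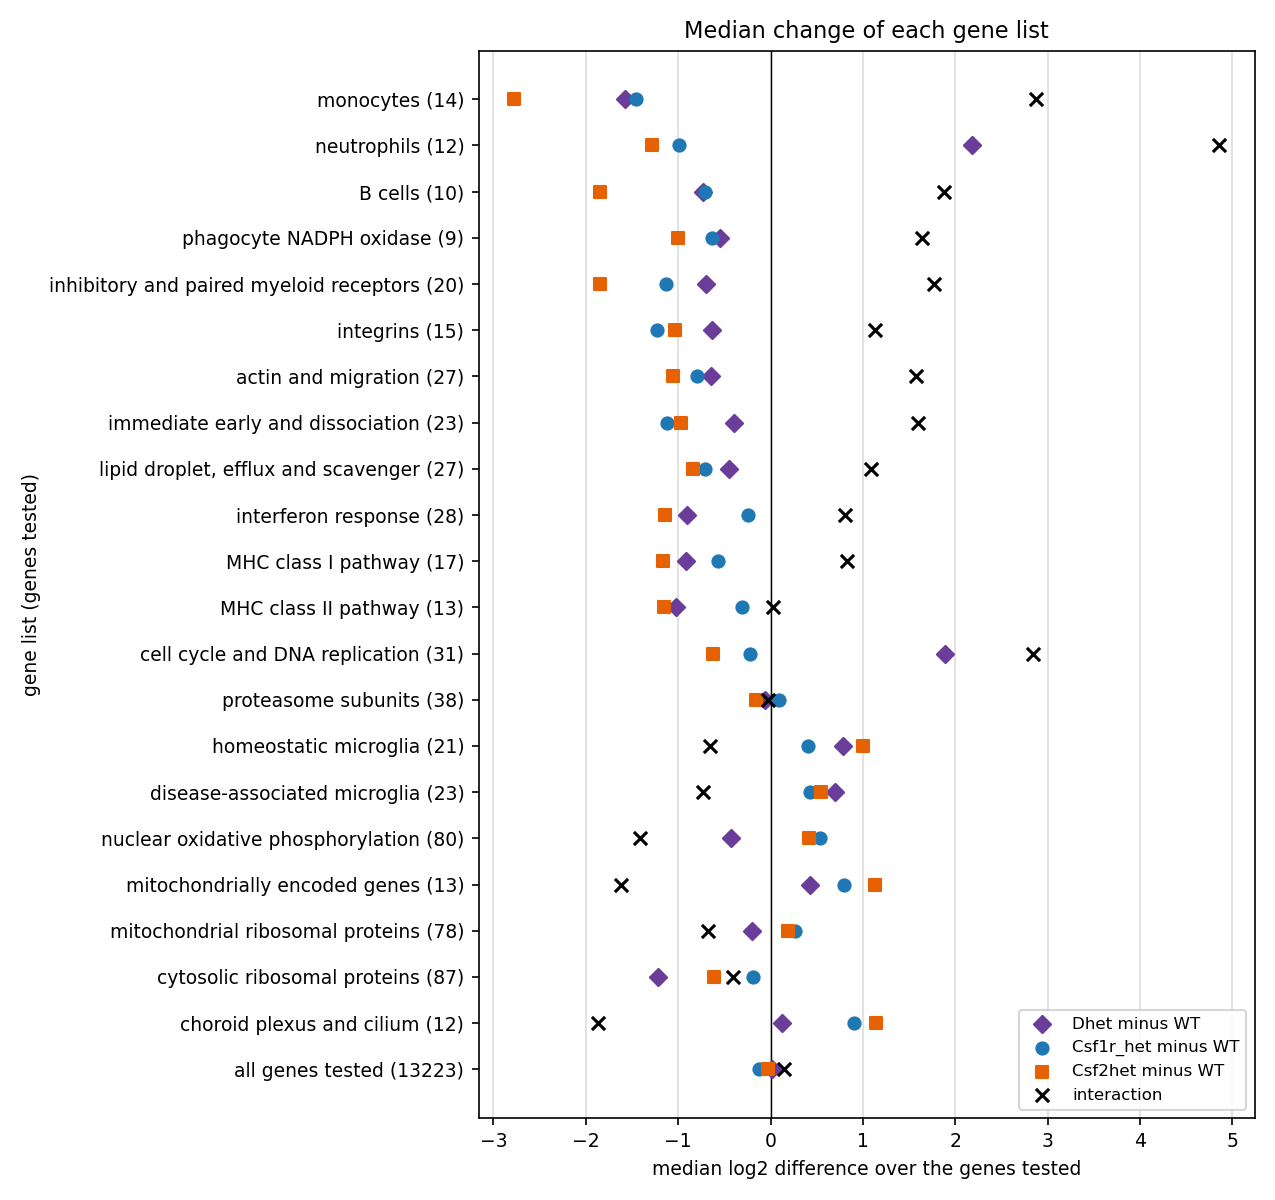
Median log2 difference to WT of each gene list in Dhet, Csf1r_het and Csf2het, with the median interaction, and the number of genes tested in brackets. The monocyte median interaction of 2.88 comes with negative values in all 3 groups, and the cell cycle median of 2.84 with a positive value in Dhet.

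Genes of the choroid plexus and of cilia, which mark epithelium of the ventricles, moved with the genes called lower. Of 12, 11 had a negative interaction and 1 a positive one (8.33%, against 54.2% of all genes). Of the 12, 3 were called lower, against 0.643% of all genes. Their median was -1.87, and it was -0.99 without Dhet replicate 1 and -2.90 without Dhet replicate 2. Folr1, the folate receptor of that epithelium, held 2386 and 4339 normalized counts in Dhet, 12613, 7222 and 12371 in Csf1r_het, 7305, 8750.1 and 5635 in Csf2het and 4272, 1567 and 3610 in WT (interaction -2.99, SE 0.61). Dynlrb2 (ENSMUSG00000034467.7, chromosome 8, 116504974 to 116515915), a dynein light chain, held 216 and 370.3 normalized counts in Dhet, 1418, 813 and 1178 in Csf1r_het, 1156, 879.6 and 1202 in Csf2het and 202, 442 and 273 in WT (interaction -3.84, SE 0.61, limma adjusted p = 0.00988). In both genes the single heterozygotes lay above all Dhet and WT libraries. Pifo, also of cilia, had -3.52 (SE 0.80). Dynlrb2 lost its call without Dhet replicate 1, and Folr1 and Pifo kept theirs in 5 and 3 of the 11 fits. The part of this epithelium in the other genes called lower was not tested.

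The promoter of Dynlrb2 is shown for part of the X-box, the motif of RFX factors that drive cilium genes. Capitals mark GTTGCC on either strand in the RefSeq window of GRCm38.p6 at chr8:116504765-116505064, forward strand.
Dynlrb2: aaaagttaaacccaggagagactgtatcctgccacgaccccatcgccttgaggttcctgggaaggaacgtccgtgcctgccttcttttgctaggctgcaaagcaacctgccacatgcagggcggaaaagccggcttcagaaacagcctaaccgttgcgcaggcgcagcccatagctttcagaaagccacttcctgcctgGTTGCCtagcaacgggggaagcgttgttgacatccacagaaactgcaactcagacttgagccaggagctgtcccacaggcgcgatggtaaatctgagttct
GTTGCC lay in 13 of 63 promoters of genes called lower (20.6%), in 10 of 128 of genes called higher (7.81%) and in 12.8% of all.

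The other large negative interactions include genes close to 0 in some groups, where the fitted size depends on the added count of 1. Spink8, a protease inhibitor, held 243 and 0 normalized counts in Dhet, 136, 127 and 92.6 in Csf1r_het, 482, 1095 and 958 in Csf2het and 0, 0 and 5.74 in WT (interaction -11.64, SE 2.38). Its Dhet libraries disagreed, with replicate 1 among the single heterozygotes and replicate 2 at 0. Its interaction was -15.61 without Dhet replicate 1 and -7.67 without Dhet replicate 2, and its call was lost in 6 of the 11 fits. Hmgcll1, a lyase of ketone body synthesis, held 5.26 and 2.87 normalized counts in Dhet, 27.7, 307 and 42.1 in Csf1r_het, 261, 103 and 91.3 in Csf2het and 3.21, 0 and 2.29 in WT (interaction -9.70, SE 1.79). Here all Dhet and WT libraries lay under the single heterozygotes. Tmem14a (-4.51) and Frmpd1os (-4.04, SE 0.93) were also among the 12 lowest. Hmgcll1 kept its call in 7 of the 11 fits and Tmem14a and Frmpd1os in 2 each. Without Dhet replicate 1 Frmpd1os had -2.61, and without the 24-month libraries Tmem14a had -2.91. Frmpd1os is by its name an opposite-strand transcript of Frmpd1, and reads of the pair cannot be told apart without strand.

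**Figure D4:**
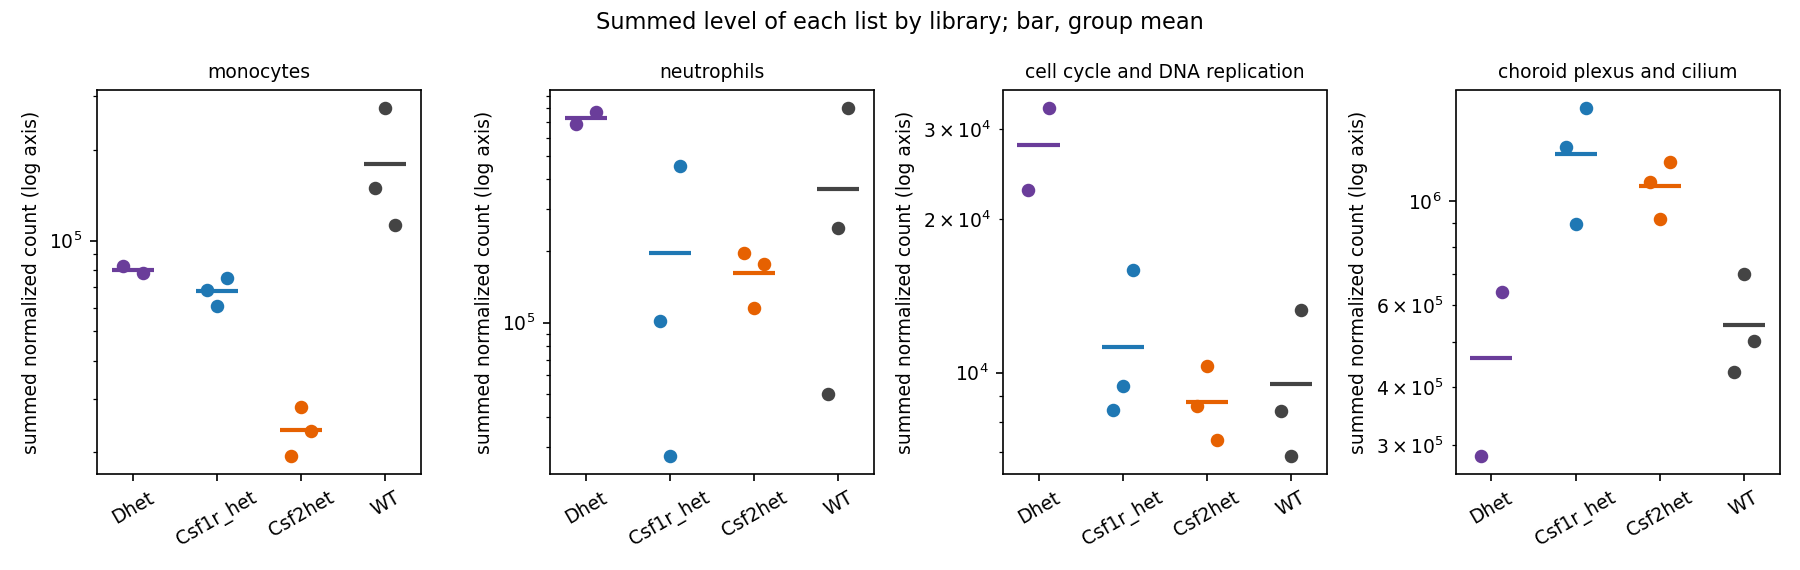
Summed normalized counts of 4 lists in each library (log axis, points) with the group mean (bar), for Dhet, Csf1r_het, Csf2het and WT. Monocyte markers are lowest in Csf2het, cell cycle genes are highest in the 2 Dhet libraries at 22782 and 32976, and choroid plexus and cilium genes are highest in the single heterozygotes. The last sum is mostly Ttr, with means of 1103720 in Csf1r_het and 911552 in Csf2het, so it says little of the other members.

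Dhet itself was the group of departure in 12 called genes, 6 higher and 6 lower, some of them named after their values were seen. Bgn, the matrix proteoglycan biglycan, held 2.25 and 2.30 normalized counts in Dhet, 400, 236 and 364 in Csf1r_het, 515, 596 and 121 in Csf2het and 331, 24.3 and 449 in WT (interaction -7.74, SE 1.52, limma adjusted p = 0.0251). Its Dhet values are near 0, so the fitted size depends on the added count of 1. Mdk, the growth factor midkine, held 137 and 129 normalized counts in Dhet, 710.2, 429.7 and 868 in Csf1r_het, 681, 868 and 741 in Csf2het and 306, 217 and 145 in WT (interaction -4.09, SE 0.65, limma adjusted p = 0.0103), and kept its call without any 1 library. In both genes the 2 Dhet libraries were the lowest of the 11. Socs2, a feedback inhibitor of STAT5 signalling, held 15.8 and 102 normalized counts in Dhet, 412, 476 and 289.5 in Csf1r_het, 409, 632 and 324 in Csf2het and 120.1, 45.6 and 243 in WT (interaction -5.19, SE 1.14), with Dhet overlapping WT. Itgb8, an integrin chain that activates latent TGF-beta, had -3.85 (SE 0.80), with 75.8 and 214 normalized counts in Dhet, under all 9 others. Bgn and Itgb8 kept their calls in 4 of the 11 fits each and Socs2 in 3, and all 3 lost them without Dhet replicate 1. Lbr, the lamin B receptor of the nuclear envelope, held 3692 and 5602 normalized counts in Dhet, 862 to 1241 in Csf1r_het, 564 to 1354 in Csf2het and 1654 to 3475 in WT (interaction 3.69, SE 0.59, limma adjusted p = 0.0105), higher in Dhet than in every other library. The remaining higher genes were Mcm7, Anxa1, Kpna2, Arih1 and a predicted gene, and the remaining lower genes Fxyd1 and C1qtnf5.

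Of the lists of cell functions, cell cycle genes had the highest median interaction, 2.84. The departure lay in Dhet for 20 of 31, against 22.4% of all genes tested. It also lay in Dhet for 61 of 87 cytosolic ribosomal proteins, 44 of 80 nuclear genes of oxidative phosphorylation and 11 of 12 neutrophil markers. The medians of the cell cycle genes were 1.89 in Dhet, -0.22 in Csf1r_het and -0.62 in Csf2het. Of these 31 genes 28 had a positive interaction, against 54.2% of all genes. With the 21-month libraries only the median interaction was 1.51. Mcm7 (ENSMUSG00000029730.16, chromosome 5, 138164583 to 138172422), a subunit of the replicative helicase, was the 1 called (3.23%, against 1.85% of all genes). It held 1284 and 1022 normalized counts in Dhet, 224, 296 and 247 in Csf1r_het, 181, 267 and 95.4 in Csf2het and 638, 303 and 303 in WT (interaction 3.38, SE 0.74, limma adjusted p = 0.0358). The 2 Dhet libraries stood above the 9 others, and the call held in 3 of the 11 fits, not without Dhet replicate 2 (3.55, limma adjusted p = 0.0674). The proliferation marker Mki67 held 743 and 1076 normalized counts in Dhet, 176, 212 and 447 in Csf1r_het, 153, 173 and 76.3 in Csf2het and 169.5, 231 and 406 in WT, with an interaction of 2.79 (SE 0.83) that did not pass. Neutrophil markers moved with these genes. Their sum was 682716 and 765272 normalized counts in Dhet, 27473 to 457787 in Csf1r_het, 115274 to 196031 in Csf2het and 49998 to 799878 in WT, and all 12 had a positive interaction (median 4.86), with 0 called by limma and 4 at an unadjusted p under 0.05. That median was 3.63 without the 24-month libraries and 1.44 with the 21-month libraries only. Mpo, a granule enzyme made by marrow precursors of neutrophils, held 3629.9 and 14124 normalized counts in Dhet, 14.5, 416 and 3543 in Csf1r_het, 74.1, 1028 and 2.73 in Csf2het and 1831, 6.79 and 2219 in WT, so that its level varied widely within groups. The part of these cells in the cell cycle values was not tested.

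In 4 lists members of both signs left a median near 0, which does not show that their genes were additive. The median interaction was 0.02 for 13 MHC class II genes (7 positive and 6 negative), -0.03 for 38 proteasome subunits (18 and 20), 0.01 for 64 translation factors (32 and 32) and 0.01 for 22 genes of the unfolded protein response (11 and 11). Of the 22, the ER chaperone-like factor Manf was the 1 called (4.55%, against 1.85% of all genes). Its interaction was -1.91 (SE 0.42), called in 2 of the 11 fits. The sign of each of these medians turned under other settings, so none has a direction. In MHC class II the medians were -1.03 in Dhet, -0.30 in Csf1r_het and -1.15 in Csf2het. Rps3a2, a ribosomal protein copy singled out after its values were seen, held 1535 and 1378 normalized counts in Dhet, 7.92, 1.48 and 9.48 in Csf1r_het, 1292, 1094 and 1463 in Csf2het and 8.99, 8.74 and 1.15 in WT. It was high wherever a Csf2 copy was missing, with an interaction of 0.14 (SE 1.29, limma adjusted p = 0.968), and near copies make its count uncertain.

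Of the CSF receptors and ligands, limma called 0 of 7 (2 at an unadjusted p under 0.05), although all 7 had a positive interaction (median 0.77), against 54.2% of all genes. That median was 1.16 without Csf1r_het replicate 2 and 1.25 without the 24-month libraries. Csf2rb, the signalling chain of the GM-CSF receptor, came nearest, with 1957 and 1701 normalized counts in Dhet, 1203, 2595 and 1765 in Csf1r_het, 1306, 1425 and 1338 in Csf2het and 5995, 5546 and 3669.6 in WT. The 8 heterozygous libraries lay together below WT, and the interaction was 1.92 (SE 0.48, limma adjusted p = 0.0627). Csf1r itself held 40151 and 30254 normalized counts in Dhet, 17017, 40567 and 24022 in Csf1r_het, 53873, 58211 and 66762 in Csf2het and 93319, 41261 and 63538 in WT, with an interaction of 0.53 (SE 0.67, limma adjusted p = 0.721). Its Dhet and Csf1r_het libraries all lay below those of Csf2het and WT, as the genotype labels have it. Csf2ra, the specific chain of the GM-CSF receptor, had 1.64 (SE 0.49, limma adjusted p = 0.106). Csf1, a ligand of Csf1r, had 0.25 (SE 0.80), the G-CSF receptor Csf3r 1.03 (SE 0.54), the IL-3 receptor chain Il3ra 0.64 (SE 1.30) and Csf2rb2, a near copy of Csf2rb with an uncertain split of reads, 0.77 (SE 0.83). The sign of Csf1r, Csf1, Csf2ra, Il3ra and Csf2rb2 turned under at least 1 alternative. Csf2 was not analysed here, so its level was not set beside the genotype labels of Csf2het and Dhet. Within 5 Mb of Csf1r, 0 of 48 tested genes were called, and within 5 Mb of Csf2, 2 of 94 (2.13%, against 1.85% of all genes).

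**Figure D5:**
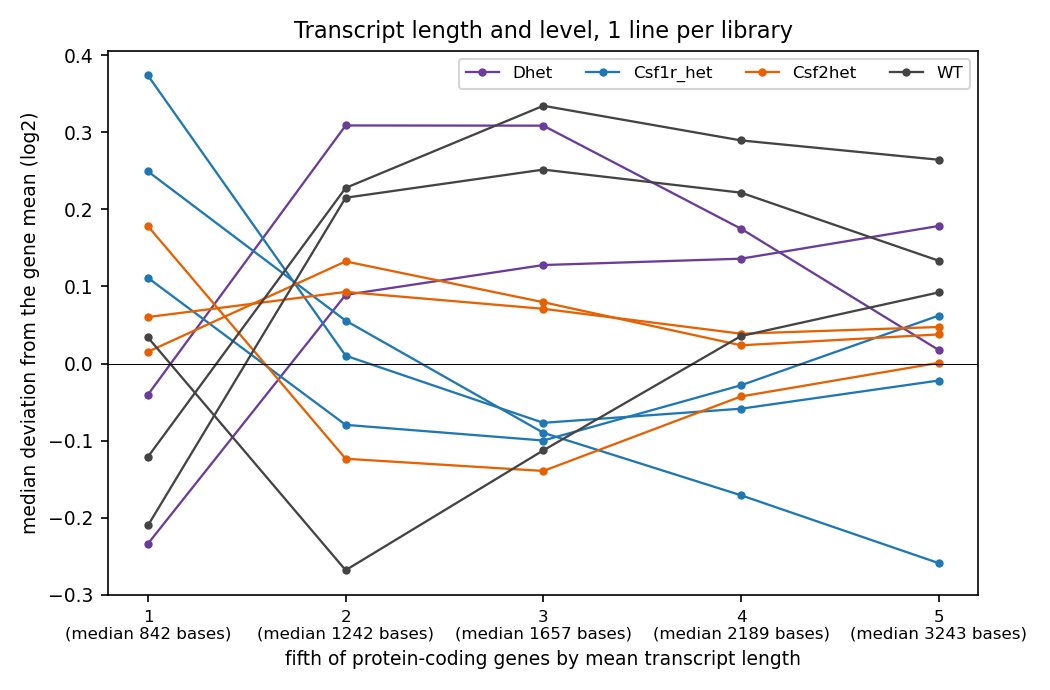
Median deviation of protein-coding genes from their mean over libraries (y axis, log2) in 5 classes of transcript length, from short to long and with equal numbers of genes (x axis, median length), 1 line per library. In the shortest class the Csf1r_het and Csf2het libraries lie above 0 and the Dhet libraries below it.

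Transcript length moved with the direction of the calls. Genes called lower had a median transcript length of 888 bases, those called higher 1723 and all genes tested 1566. The median interaction was -0.48 in the shortest of 5 equal classes of protein-coding genes and 0.25 to 0.48 in the other 4. With length and GC content adjusted, a step chosen after the data were seen, 136 genes were called higher and 86 lower, of which 109 and 54 were among the 159 and 85.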

How the data were processed

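RNA of 11 microglial libraries was sequenced, and the authors deposited 1 table of size-factor-normalized counts per gene, a signal on a linear scale. Per the submitters' processing notes, kallisto 0.43.1, DESeq2 and mm10 were used. Their other settings and whether reads were strand-specific are not given in the sources used here. Each column was divided by its smallest step, which gave whole reads for 100% of values within 0.02 of a whole number and a depth per library. These reads served edgeR and DESeq2 as alternatives, since the deposited unit is not a raw count, and edgeR's quasi-likelihood test called 208 genes on them (126 higher and 82 lower).

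Group means of log2(normalized count + 1) were fitted with limma 3.58.1 in R 4.3.3 with a trended prior (7 residual and 5.9 prior degrees of freedom) over genes with a mean of at least 10, with Benjamini-Hochberg adjustment. The fit was tested on simulated data with changes placed in Dhet alone. Changes of 1, 2 and 4 on the log2 scale were called in 0 of 67, 2 of 67 and 18 of 66 genes. Of 13023 unchanged genes 3 were called. A gene that was not called may therefore still depart from additivity. Alternatives used edgeR 4.0.16, DESeq2 1.42.0, other pseudocounts, filters, scalings and covariates, and left out single libraries. The members, gene lists and tests were chosen with earlier results of these data known. Named genes were the CSF ligands and receptors, the 12 largest interactions in each direction among called genes averaging 50 or more normalized counts and having an established name, and up to 4 called members of each list by lowest p. Others are said to be chosen after their values were seen, or stand as further members of a list. Some items that the rule would name are not reported here. Promoters are RefSeq windows of GRCm38.p6.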

Additional observations from a re-analysis of the deposited data

Results flagged for a closer look

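The effect of losing a Csf1r copy differed between mice with and without both Csf2 copies in 159 genes in which it was higher on the Csf2+/- background and 85 in which it was lower, by the limma test of the interaction itself. Of the Dhet, Csf1r_het, Csf2het and WT groups, each had fewer than 4 libraries, so no library was tested for standing apart within its group.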

How the results depend on the processing

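The counts of 159 genes called higher and 85 called lower stayed within 1.5 times with pseudocounts of 0.25 and 8, with no filter or a mean of at least 50, with centred medians, TMM factors, edgeR, an age covariate and the length and GC adjustment. They were 522 and 386 with DESeq2, 31 and 23 with the haemoglobin share as a covariate, 22 and 4 with a prior without a trend, and 103 and 267 without the 24-month libraries. With the monocyte marker covariate they were 0 and 0, and with the 21-month libraries only 0 and 0 in limma (1756 genes at an unadjusted p under 0.05). In that fit, as in each fit without a Dhet library, the lone Dhet library was assumed to vary like the other groups. Without 1 library each, the counts ran from 33 to 474 higher and 14 to 422 lower. With the replicate number as a block the counts were 12 and 2, and no label states that these numbers pair the libraries. Correlations of deviations lay between -0.214 and 0.0616 for same-numbered libraries and between -0.201 and 0.314 for others. Deviations are taken within groups of 2 or 3 libraries, so these values cannot show whether the numbers pair them. The causes were not tested.

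The sign turned for Csf2ra (-0.0035), Il3ra (-0.88), Slfn2 (-0.23) and Tgfbi (-0.053) with the monocyte covariate. It turned for Csf1 without WT replicate 1 (-0.05), Csf1r_het replicate 1 (-0.02) and Dhet replicate 1 (-0.44), for Csf2rb2 without Dhet replicate 1 (-0.41), where Csf1 and Csf2rb2 reached 0.93 and 1.95 without Dhet replicate 2, and with the length and GC adjustment for Csf1 (-0.31) and Csf1r (-0.031). Over the 80 named genes, 801 of the alternative values kept their direction without passing the threshold, 1343 kept direction and side, and 6 newly passed. Depth limits genes near 0 in a group, such as Spink8, Hmgcll1, Bgn and Tarm1, whose fitted sizes depend on the added count.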

Other observations

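A list of the pentose phosphate pathway and NADPH supply was chosen after seeing values and so is given without a test. It includes Gsr, which uses NADPH. Of its 16 genes 6 were among those called higher, against 1.20% of all genes. The median interaction of the 16 was 1.13, against 0.15 over all genes, and 12 of the 16 had a positive one, against 54.2%. G6pdx, the first enzyme of the pentose phosphate pathway, held 2384 and 3627 normalized counts in Dhet, 1616, 1095 and 1509.8 in Csf1r_het, 1182, 605 and 976 in Csf2het and 6815, 4421 and 7425 in WT (interaction 3.86, SE 0.51). Nadk, the kinase that makes NADP, held 2489 and 2886 normalized counts in Dhet, 2029, 1054 and 1337 in Csf1r_het, 1443, 1139 and 943 in Csf2het and 9579.8, 6143 and 6946 in WT (interaction 3.60, SE 0.47). WT lay above all heterozygous libraries in both genes, with Dhet above the single heterozygotes. The further called members were Gsr, Tkt (2.53, SE 0.44), Pgd (2.59, SE 0.46) and Me2 (2.94, SE 0.57). In Pgd, of the same pathway, the departure lay in Csf1r_het, with 3919.7 and 3774 normalized counts in Dhet, 1464, 1012 and 1427 in Csf1r_het, 2149, 2199.6 and 1536 in Csf2het and 5079.5, 2747 and 4202 in WT.

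Kinases and adaptors of immunoreceptor signalling, chosen in the same way, had 7 of 17 called higher, against 1.20% of all genes, and a median interaction of 1.85, against 0.15. Fgr, a Src-family kinase, held 1655 and 2597 normalized counts in Dhet, 1974, 2412 and 1043 in Csf1r_het, 886, 981 and 737 in Csf2het and 9995, 8875 and 6693 in WT (interaction 3.57, SE 0.52), with Dhet overlapping Csf1r_het. Syk, the kinase that binds phosphorylated receptor motifs, held 1674 and 1393 normalized counts in Dhet, 852 to 1531 in Csf1r_het, 913 to 977 in Csf2het and 2568 to 4485 in WT (interaction 2.37, SE 0.47). Of 11 genes of glycogen synthesis and breakdown, Pygl and the primer protein Gyg (2.64, SE 0.51) were called, against 1.85% of all genes, and the median interaction was -0.01.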
